A study of Mus musculus with 14 samples.

Results

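Genes that LPS switches on in a macrophage follow different time courses, and the interval from 2 h to 6 h after LPS is described here in mouse bone marrow-derived macrophages that had received only PBS beforehand. The comparison rests on 4 of the 14 libraries of the series, 2 taken 2 h and 2 taken 6 h after LPS, chosen by their labels. All cells were derived from marrow of C57Bl6/J male mice, 6 to 12 weeks old, in medium that contained L929-conditioned medium as a source of CSF-1, with no genetic change named. They were kept for 24 h with PBS, washed, and then given LPS or PBS. The dose of LPS in this second step was not stated in the sources used here. PBS followed by PBS was represented by 1 library at 2 h and 1 at 6 h, and 4 further libraries, 2 per time, came from cells that received Poly I:C, a synthetic double-stranded RNA, at 100 ng/mL for 24 h before the same LPS step. Nothing in the labels says whether the libraries of a group came from separate animals or cultures. The p-values therefore measure only the spread between libraries of a group, which may be technical. That spread was pooled for each entry over all 8 groups of the series, including Poly I:C followed by PBS. A standard error can thus be large where the 4 LPS libraries compared here lie close together within each time, as for Cxcl2.

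LPS, a component of the wall of Gram-negative bacteria, is sensed by TLR4 together with CD14 and MD-2. From TLR4 the adaptor MyD88 leads quickly to NF-kB, MAP kinases and AP-1, and the adaptor TRIF leads to IRF3 and interferon beta. Primary response genes need no new protein synthesis, whereas secondary response genes wait for proteins made in the first wave, among them interferon beta, which is secreted, binds its receptor and acts through JAK kinases and STAT transcription factors. Many early messages carry AU-rich elements and decay quickly, and proteins such as A20 and SOCS3 limit the response once it has begun.

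Polyadenylated RNA was measured as FPKM, fragments scaled to transcript length and to library size, in a single table made by the authors. Entries with a gene name and at least 1 FPKM in at least 2 of the 14 libraries were kept, which left 11977, and limma was run on log2(FPKM + 1). A change is the difference between group means on that scale, given as log2 with its standard error, and an entry was called where the Benjamini-Hochberg adjusted p over all 11977 entries was under 0.05. The number of reads per library is unknown, and the steps between FPKM values of low genes gave a range of 2.25-fold in relative depth over the 6 unprimed libraries, scaling included. Macrophage marker genes were high in every LPS library of these cells, with sums of 16300 and 21000 FPKM at 2 h and 15500 and 16700 FPKM at 6 h over 9 genes. All 6 mast cell and basophil markers, 5 erythroid markers, 9 of 10 T and NK cell markers and 7 of 10 neutrophil markers stayed under 1 FPKM in all 10 libraries compared. Stromal markers summed to 15.7 and 17.0 FPKM at 2 h and to 25 and 62.4 FPKM at 6 h, against 21.8 and 20.8 FPKM with PBS. As in any bulk RNA sample, fewer cells of a type and less RNA per cell cannot be told apart.

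Between 2 h and 6 h of LPS, 2803 entries (23.4% of those tested) were higher and 3111 (26.0%) were lower. Of these, 1326 (11.1%) were higher and 1281 (10.7%) lower by at least 2-fold. The median change over all tested entries was -0.05. Between the single PBS libraries 32 entries were called higher and 159 lower at 6 h, with the spread taken from the other groups. With 1 library per time that comparison has larger standard errors, so its counts cannot be set against those with LPS. The change with LPS exceeded that with PBS for 1660 entries (13.9%) and was below it for 1402 (11.7%). These counts were 569 and 271 when the 6 unprimed libraries were fitted alone, and all counts relative to PBS below come from the fit of all libraries. Of the entries that rose at least 2-fold with LPS, 1115 (84.1%) were among the former, and of those that fell at least 2-fold 879 (68.6%) were among the latter. Of the genes named below as called from 2 h to 6 h, the LPS change did not differ from the PBS change by the test for Tnf, Cxcl2, Irf1, Il27, Tnfaip3, Nfkbid, Zc3h12a, Irak3, Relb, Nfkb2, Egr2, Fos, Cd83, Icam1, Cd14, Traf3, Nlrp3, Plaur, Mrc1, Mx2, Pcna and Gm25777.

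The 2 libraries at 2 h differed from each other by transcript length. Replicate 1 was above replicate 2 by a median of 0.50 on the log2 scale over 1015 transcripts shorter than 1500 bases and below it by a median of -0.35 over 1005 transcripts longer than 5000 bases, whereas the pair at 6 h gave -0.08 and 0.04. The median change from 2 h to 6 h of the short transcripts was -0.29 with all libraries, -0.02 without replicate 1 and -0.53 without replicate 2. Groups of short housekeeping messages such as ribosomal proteins and respiratory chain subunits are therefore given below with and without each of these libraries.

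**Figure D1:**
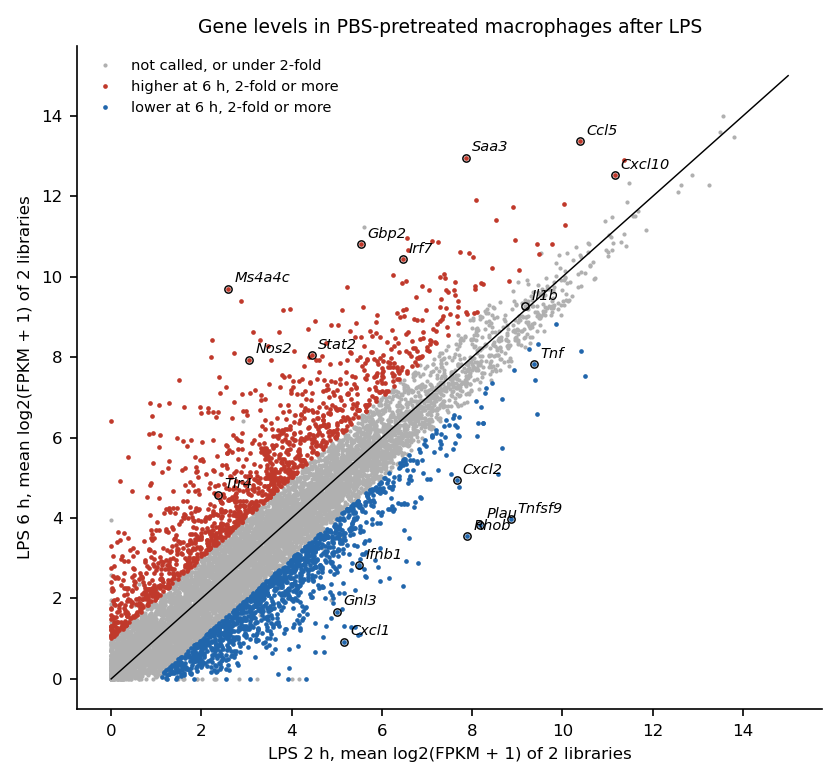
Mean level of each of 11977 tested entries in PBS-pretreated macrophages at 2 h (x axis) and 6 h (y axis) after LPS, as log2(FPKM + 1) over 2 libraries per time, with the line of equal level. Red and blue points are entries called with a change of at least 2-fold (1326 higher, 1281 lower), and circles mark genes described in the text, with Ms4a4c far above the line and Tnfsf9, Cxcl1 and Plau far below it.

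The entries were placed in 6 time courses by their calls and 2-fold changes, comparing LPS with PBS at each time and LPS at 6 h with LPS at 2 h. LPS raised 653 entries (5.45% of those tested) at least 2-fold over PBS at 2 h and 1711 (14.3%) at 6 h. Early transient entries, 188 in number, were up at 2 h and fell by 6 h, 303 early sustained entries were up at 2 h with no called 2-fold change after, and 162 early rising entries were up at 2 h and rose further. Another 866 entries were late, not up at 2 h and up at 6 h, and 67 were recovering, below PBS at 2 h and higher at 6 h. A further 695 were late falling, not up at 2 h, lower at 6 h than at 2 h and below PBS at 6 h, which includes entries already below PBS at 2 h. The contrasts share libraries, so these counts are a description of the definitions with no test. The early transient entries stood a median of 1.85 above PBS at 2 h and 0.35 above it at 6 h. At 6 h, 56 of the 188 were still at least 2-fold above PBS, 10 were at least 2-fold below it and 122 were neither. The early rising entries went the other way, from a median of 1.70 above PBS at 2 h to 4.29 at 6 h.

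**Figure D2:**
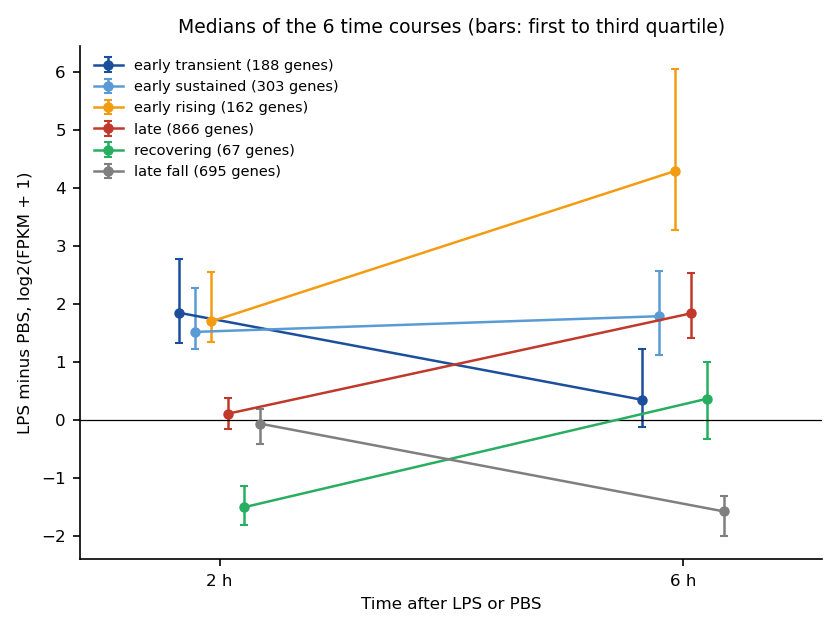
Median difference between LPS and PBS in log2(FPKM + 1) at 2 h and 6 h for the entries of 6 time courses, with bars from the first to the third quartile over entries. The early transient line falls from 1.85 to 0.35, the early rising line climbs from 1.70 to 4.29, and the late line starts at 0.11 and reaches 1.84.

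Several cytokine genes were early transient. Tnfsf9, which encodes the T cell costimulatory ligand 4-1BBL, had 3.49 FPKM with PBS and 499 and 433 FPKM with LPS at 2 h, and 10.7 FPKM with PBS and 13.6 and 15.8 FPKM with LPS at 6 h. Its change of -4.89 ± 0.83 (adjusted p = 0.000745) was the largest fall on the log2(FPKM + 1) scale among entries naming 1 gene with a mean of at least 5 FPKM at either time. By the ratio of means Fosb fell further, 143-fold against 31.7-fold for Tnfsf9. Tnf, the founding inflammatory cytokine of the TNF family, had 694 and 624 FPKM at 2 h and 227 in each library at 6 h, against 46.6 and 30.3 FPKM with PBS. Its libraries did not overlap between the times. The change of -1.53 ± 0.47 (adjusted p = 0.022) missed the threshold when any 1 of the 4 LPS libraries was left out (adjusted p from 0.0555 to 0.0871). Ifnb1, interferon beta, was at 50.8 and 38.6 FPKM at 2 h and at 4.47 and 8.17 FPKM at 6 h, while PBS gave 0.0812 FPKM at 2 h and a listed 0 at 6 h. Its fall of -2.68 ± 0.36 (adjusted p = 0.000179) left it above PBS at 6 h. Csf2, which encodes the growth factor GM-CSF, was at 6.67 and 3.69 FPKM at 2 h and at 0.627 FPKM and a listed 0 at 6 h, and Lif, a cytokine of the IL-6 family, went from 3.03 and 6.34 to 0.272 and 0.197 FPKM. Csf1, the growth factor that macrophages depend on, was at 98.4 and 105 FPKM at 2 h and at 34.9 and 36.6 FPKM at 6 h, against 25.3 and 4.72 FPKM with PBS. As Csf1 also fell between the PBS libraries, its LPS change lay above the PBS change by 0.72 (adjusted p = 0.0405).

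The neutrophil-attracting chemokine genes Cxcl1, Cxcl2 and Cxcl3 fell. Cxcl1 was at 33.8 and 35.7 FPKM at 2 h and at 1.12 and 0.712 FPKM at 6 h, with 0.251 and 0.135 FPKM in the PBS libraries, a change of -4.23 ± 0.33 (adjusted p = 4.03e-06). Cxcl2 went from 195 and 206 FPKM to 30.9 and 28.7 FPKM, a change of -2.71 ± 0.72 (adjusted p = 0.01) that missed the threshold without 6 h replicate 2 (adjusted p = 0.0517). Cxcl3 went from 36.0 and 23.4 FPKM to 3.60 and 2.58 FPKM. All of them stood above the single PBS library of 6 h in both LPS libraries, but that difference was called only for Cxcl3.

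These 3 chemokine genes and Ifnb1 are shown with their promoters because they belong to the clearest early transient genes and the RefSeq tables (GRCm38.p6) hold a promoter for each. The windows run from 250 bases before to 50 bases after the annotated start, and capitals mark matches to the NF-kB motif searched on both strands, which 8.46% of all 32851 promoters in the table hold. They are chr5:90890995-90891294 on the plus strand for Cxcl1, chr5:90903649-90903948 on the plus strand for Cxcl2, chr5:90785851-90786150 on the plus strand for Cxcl3 and chr4:88522745-88523044 on the minus strand for Ifnb1.
Cxcl1: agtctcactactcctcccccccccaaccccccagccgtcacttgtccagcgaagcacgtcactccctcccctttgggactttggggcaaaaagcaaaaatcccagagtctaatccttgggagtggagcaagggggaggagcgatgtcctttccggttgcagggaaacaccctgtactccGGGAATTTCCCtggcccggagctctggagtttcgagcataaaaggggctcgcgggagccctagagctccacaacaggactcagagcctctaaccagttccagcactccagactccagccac
Cxcl2: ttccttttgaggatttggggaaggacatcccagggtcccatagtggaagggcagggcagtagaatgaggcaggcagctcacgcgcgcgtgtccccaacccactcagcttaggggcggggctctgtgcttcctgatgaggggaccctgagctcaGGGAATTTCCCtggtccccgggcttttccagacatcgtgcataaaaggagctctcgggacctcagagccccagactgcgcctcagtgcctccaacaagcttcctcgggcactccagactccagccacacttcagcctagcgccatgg
Cxcl3: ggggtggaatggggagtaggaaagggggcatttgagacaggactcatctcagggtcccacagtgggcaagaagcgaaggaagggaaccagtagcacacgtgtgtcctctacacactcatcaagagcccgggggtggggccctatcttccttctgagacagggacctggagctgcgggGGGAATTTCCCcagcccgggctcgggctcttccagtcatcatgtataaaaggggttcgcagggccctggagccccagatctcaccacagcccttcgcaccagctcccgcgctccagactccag
Ifnb1: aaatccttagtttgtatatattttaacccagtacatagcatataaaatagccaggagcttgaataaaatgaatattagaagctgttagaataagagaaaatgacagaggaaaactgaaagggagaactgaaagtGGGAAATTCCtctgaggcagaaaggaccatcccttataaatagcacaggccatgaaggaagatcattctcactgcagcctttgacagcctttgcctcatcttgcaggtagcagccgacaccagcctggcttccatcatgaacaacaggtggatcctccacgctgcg
In the chemokine promoters the match reads on both strands, so that overlapping matches begin 71 and 70 bases before the start of Cxcl1, 97 and 96 bases before that of Cxcl2 and 73 and 72 bases before that of Cxcl3. The Ifnb1 window holds 1 match that begins 116 bases before the annotated start. Of the 10 genes with the largest falls 7 had a promoter in the table and 2 of these, Cxcl1 and Pxdc1, held a match. A match is only a match of letters and says nothing about whether a factor was bound. Shares of promoters over whole gene groups are not given, because 8375 of 11145 single-gene entries had a promoter, and the check of any property over them is void below 80%. The 7 of 10 genes with the largest falls also lie under that limit, so their matches are listed without a comparison.

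The immediate early genes, which are induced within minutes without new protein synthesis and many of which encode transcription factors, mostly fell. Of 29 tested members 18 were lower and 5 higher at 6 h, with a median change of -0.92. Maff, a small MAF factor, was at 38.5 and 44.3 FPKM at 2 h and at 1.3 and 1.58 FPKM at 6 h, below both PBS libraries (16.8 and 3.99 FPKM). Fosb, an AP-1 subunit, went from 8.92 and 16.0 FPKM to 0.0949 and 0.0799 FPKM, and Jund, another, from 57.8 and 31.8 FPKM to 9.05 and 8.72 FPKM. Nr4a3, an orphan nuclear receptor, fell from 3.26 and 4.83 FPKM to 0.354 and 0.161 FPKM, and Egr2, a zinc finger factor, from 5.29 and 7.70 FPKM to 1.84 and 1.80 FPKM.

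PBS alone also moved this list between the times, with a median of -0.47 from the 2 h to the 6 h library, and the change with LPS differed from that with PBS for 7 members upward and 7 downward. Fos and Jun, the classical AP-1 pair, were among the members that rose. Fos stood at 49.0 FPKM with PBS, 17.4 and 28.2 FPKM with LPS at 2 h, and 61.3 and 50.4 FPKM with LPS at 6 h. Jun stood at 36.8 FPKM with PBS, 12.2 and 9.49 FPKM with LPS at 2 h, and 30.8 and 39 FPKM with LPS at 6 h. Klf6 (61.5 and 93.5 FPKM at 2 h, 180 and 193 FPKM at 6 h) and Btg2 (4.21 and 4.67 FPKM, then 15.7 and 19.0 FPKM) rose, as did Atf3, which stood well above PBS at both times.

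The genes that restrain TLR signalling spread over several time courses. Of 31 tested members 12 were lower and 7 higher, with a median change of -0.33. Over all entries 26.0% were lower and 23.4% higher. The list had a median of -0.51 between the PBS libraries. Its change with LPS differed from that with PBS for 5 members upward and 3 downward. Nfkbid, an atypical inhibitor of NF-kB, went from 64.9 and 61.9 FPKM to 13.8 and 20.1 FPKM, and Cish, of the SOCS family, from 34.4 and 33.1 FPKM to 1.97 and 2.73 FPKM. Rcan1, an inhibitor of calcineurin, fell from 296 and 265 FPKM to 78.1 and 86.1 FPKM. Tnfaip3, which encodes A20, went from 266 and 321 FPKM to 96.4 and 121 FPKM, a change of -1.43 ± 0.42 (adjusted p = 0.0164), and missed the threshold without 2 h replicate 2 or 6 h replicate 1 (adjusted p = 0.0718 and 0.0918). Zc3h12a, the endonuclease regnase-1 that degrades cytokine messages, fell from 139 and 152 FPKM to 64.8 and 72.5 FPKM.

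Other brakes held their level or rose. Socs3 was at 645 and 528 FPKM at 2 h and at 459 and 571 FPKM at 6 h, against 2.27 and 0.691 FPKM with PBS, and the phosphatase gene Dusp1 at 188 and 224, then 166 and 213 FPKM; neither was called. Zfp36, which encodes tristetraprolin, a protein that promotes decay of AU-rich messages, rose from 160 and 150 FPKM to 544 and 687 FPKM. Irak3, an inactive kinase that blocks MyD88 signalling, rose from 10.7 FPKM in each library to 40.8 and 33.7 FPKM. Il1rn, the IL-1 receptor antagonist, rose from 364 and 367 FPKM to 2443 and 3034 FPKM, with 60.5 and 104 FPKM in the PBS libraries. All 4 tested NF-kB subunit genes were lower at 6 h, from Relb (102 and 66.8 FPKM, then 29.0 and 31.8 FPKM) to Nfkb2 (204 and 154 FPKM, then 112 and 132 FPKM), with a median of -0.79, but for none of them did the change with LPS differ from that between the PBS libraries.

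Beyond these lists the early transient genes with the largest falls, picked after their values were seen, included regulators of cell shape. Rhob, a small GTPase that acts on the actin cytoskeleton, went from 251 and 222 FPKM to 10.9 and 10.5 FPKM (-4.34 ± 0.12, adjusted p = 1.16e-08), below the PBS levels of 101 and 45.4 FPKM. Rhof, of the same family, went from 46.1 and 40.5 FPKM to 1.03 and 1.22 FPKM, in an assembled locus of 280112 bases that can hold other genes. Rnd1, another relative, went from 91.1 and 53.7 FPKM to 5.50 and 4.03 FPKM, and Frmd6, a FERM domain protein, from 33.3 and 59.7 FPKM to 1.37 and 1.02 FPKM. Errfi1, an inhibitor of EGF receptor signalling, went from 103 and 120 FPKM to 5.55 and 7.17 FPKM. Surface molecules were also among the early transient genes. Cd83, a marker of activated antigen-presenting cells, fell from 679 and 696 FPKM to 82.5 and 109 FPKM, but it also fell from 75.9 to 12.2 FPKM between the PBS libraries, and the 2 changes differed by -0.30 (adjusted p = 0.6). Tlr2, the receptor for bacterial lipoproteins, fell from 680 and 657 FPKM to 174 and 172 FPKM, above the PBS levels of 64.8 and 37.7 FPKM. Icam1, an adhesion molecule for leukocytes, fell from 720 and 687 FPKM to 308 and 335 FPKM, and from 47.5 to 22.4 FPKM between the PBS libraries, with a difference of -0.08 between the 2 changes (adjusted p = 0.868). Hk2, an inducible hexokinase, fell from 48.6 and 36.0 FPKM to 15.2 and 14.3 FPKM, still above the PBS levels of 8.38 and 11.6 FPKM. At 6 h its difference from PBS was not called.

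Of 31 tested cytokine genes 11 were higher and 11 lower, with a median of 0.10. The early sustained ones given here stood far above PBS at both times and were not called between them. Il1b was at 679 and 490 FPKM at 2 h and at 656 and 584 FPKM at 6 h, and Il1a at 134 and 140, then 158 and 149 FPKM. Il6 was at 33.6 and 19.8, then 28.1 and 35.4 FPKM, and Il12b, a subunit of IL-12 and IL-23, at 45.5 and 41.9, then 39.8 and 21.9 FPKM. The libraries of the 2 times overlapped in Il1b and Il6 and did not overlap in Il1a and Il12b, and leaving out 1 library moved the change from -0.13 to 0.34 for Il1b and from -0.09 to 0.64 for Il6. For Il12b it ranged from -0.13 to -0.96, and without 6 h replicate 1 the fall was called (adjusted p = 0.00849). Il10, the main anti-inflammatory cytokine, was at 50.8 and 45.5 FPKM at 2 h and 73.9 and 97.0 FPKM at 6 h (0.80 ± 0.31, adjusted p = 0.0526). Ccl2 and Ccl7, which attract monocytes, were sustained as well, at 2480 and 2001, then 1903 and 1760 FPKM for Ccl2.

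A later set of cytokines rose. Il18, processed by caspase 1 like IL-1 beta, was at 13.7 and 12.1 FPKM at 2 h, against 10.5 FPKM with PBS, and at 165 and 210 FPKM at 6 h (3.76 ± 0.15, adjusted p = 5.5e-08). Tnfsf10, the death ligand TRAIL, went from 1.03 and 0.725 FPKM to 82.8 and 104 FPKM, a 106-fold difference between means. Il15, a growth factor for NK and memory T cells, rose from 47.1 and 31.9 FPKM to 128 and 167 FPKM, and Edn1, the vessel constrictor endothelin-1, from 4.98 and 3.88 FPKM to 20.4 and 20.2 FPKM. Il27 stood at 71.8 and 33.0, then 85.2 and 135 FPKM, and its call (adjusted p = 0.0301) was lost without 2 h replicate 2 or 6 h replicate 2 (adjusted p = 0.217 and 0.197).

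Among 19 tested chemokine genes 9 were higher and 4 lower, with a median of 0.70. Ccl5, which attracts T cells and monocytes, rose from 1823 and 996 FPKM to 9700 and 11740 FPKM (2.98 ± 0.25, adjusted p = 7.22e-06). The 3 ligands of CXCR3 all rose: Cxcl9 from 3.80 and 2.18 FPKM to 32.5 and 54.5 FPKM, Cxcl11 from 35.7 and 21.8 FPKM to 188 and 269 FPKM, and Cxcl10 from 2585 and 2005 FPKM to 5144 and 6792 FPKM. Ccl12 rose from 331 and 202 FPKM to 1406 and 1460 FPKM, and Ccl8 from 54.5 and 26.8 FPKM to 249 and 316 FPKM.

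**Figure D3:**
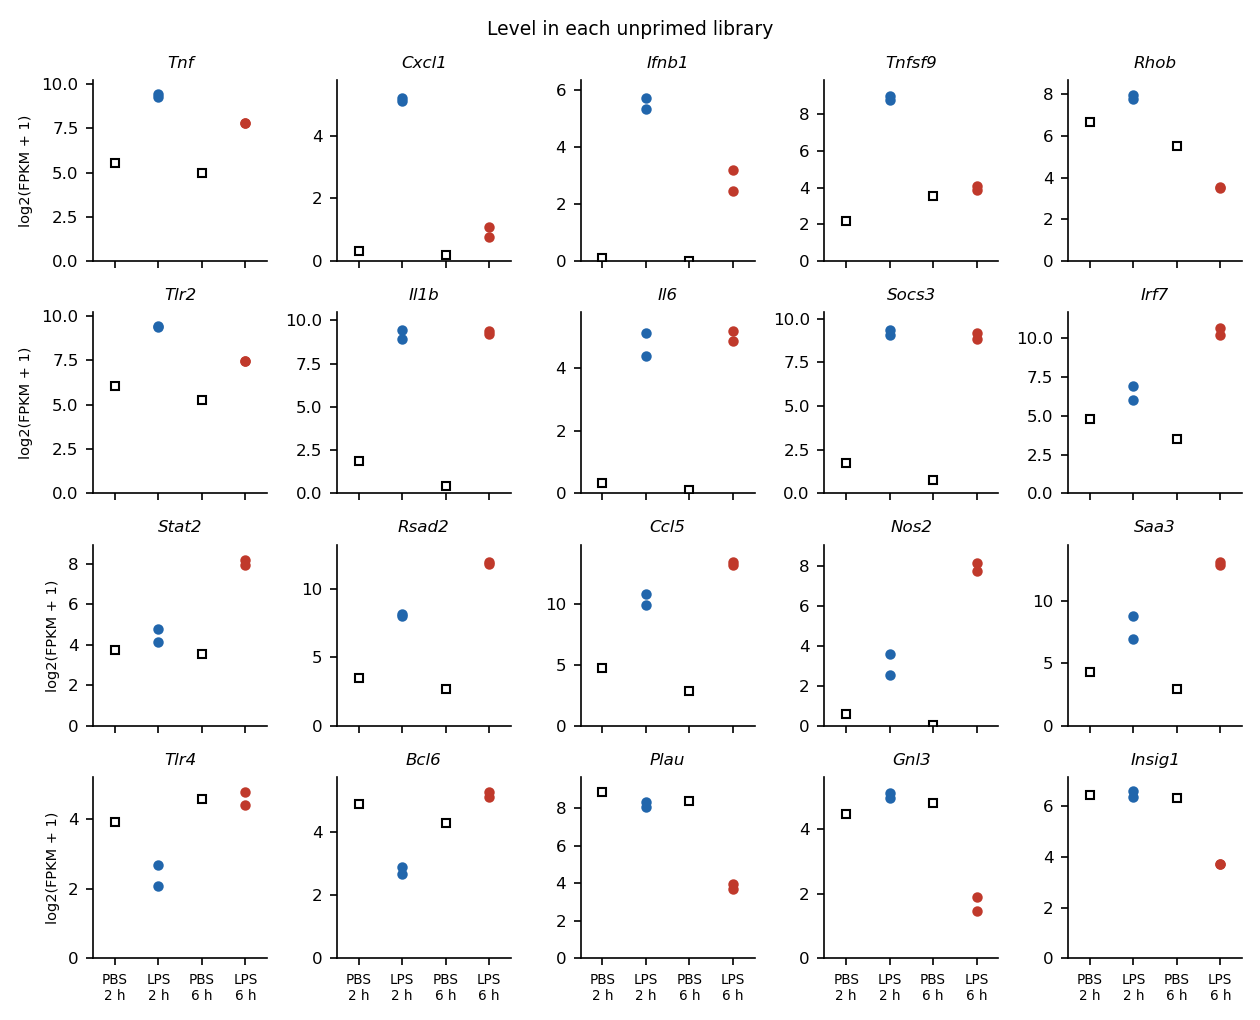
Level of 20 genes as log2(FPKM + 1) in each unprimed library, with open squares for the single PBS libraries, blue points for the 2 LPS libraries at 2 h and red points for the 2 at 6 h; each panel has its own scale from 0. Tnf, Cxcl1 and Ifnb1 are highest at 2 h, Il1b, Il6 and Socs3 overlap between the times, Irf7 to Saa3 are highest at 6 h, Tlr4 and Bcl6 are lowest at 2 h, and Plau, Gnl3 and Insig1 are lowest at 6 h.

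Of 16 tested members of the interferon signalling list, which holds ligand, receptor and transcription factor genes, 10 were higher and 5 lower, with a median of 0.58. Ifnb1, the ligand described above, was among those that fell, and Stat2, Stat3 and Irf7 were among those that rose. Stat2, a factor activated at the interferon receptor, rose from 26.5 and 16.4 FPKM to 243 and 289 FPKM. Irf7, the factor that amplifies type I interferon production, rose from 120 and 62.6 FPKM to 1187 and 1601 FPKM (3.97 ± 0.25, adjusted p = 9.65e-07), having already stood above its PBS level of 26.5 FPKM at 2 h. The kinase gene Tyk2 rose from 12.5 and 12.9 FPKM to 62.6 and 75.7 FPKM and Stat3 from 31.1 and 29.1 FPKM to 105 and 112 FPKM.

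The factor Irf2 rose from 5.68 and 5.88 FPKM to 56.1 and 69.1 FPKM. Irf1, by contrast, was early transient, at 372 and 271 FPKM at 2 h and 127 and 173 FPKM at 6 h, against 9.05 and 9.04 FPKM with PBS. Ifngr1, a chain of the interferon gamma receptor, fell from 69.1 and 79.7 FPKM to 27.6 and 23.4 FPKM while Ifngr2, the other chain, rose from 60.1 and 66.3 FPKM to 164 FPKM in each library. Irf3, the factor that TRIF activates, was not called, at 29.1 and 18.5, then 24.5 and 25.7 FPKM.

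Of 63 interferon-stimulated genes listed, 49 had an entry of their own, 48 of these were higher at 6 h and none was lower, with a median change of 3.09, and for 47 the change exceeded that with PBS. With respect to PBS the list's median was 1.24 at 2 h and 5.21 at 6 h. Only Tgtp1, near 0 in all libraries, was not called. Of the 49 members 27 were early rising, 20 were late, 1 (Mx2) was early sustained and none was early transient. Rsad2, which encodes the antiviral protein viperin, was at 10.5 FPKM with PBS and 287 and 257 FPKM with LPS at 2 h, and at 3589 and 4116 FPKM with LPS at 6 h (3.82 ± 0.15, adjusted p = 5.5e-08). Isg15, a ubiquitin-like modifier, rose from 630 and 364 FPKM to 3075 and 3764 FPKM. Gbp2, a guanylate-binding protein that attacks vacuoles holding microbes, rose from 54.2 and 38.3 FPKM to 1593 and 2023 FPKM, and the exonuclease gene Isg20 from 11.4 and 5.33 FPKM to 350 and 442 FPKM. Mx1, a dynamin-like antiviral protein, rose from 120 and 69.4 FPKM to 838 and 1064 FPKM.

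For some members the difference from PBS at 2 h did not pass the test. Ifi44 was at 1.13 FPKM with PBS, 1.78 and 1.91 FPKM with LPS at 2 h and 159 and 185 FPKM with LPS at 6 h (5.92 ± 0.11, adjusted p = 1.13e-09). Ms4a4c, a four-span membrane protein of macrophages and T cells, was at 5.82 FPKM with PBS, 6.38 and 3.98 FPKM with LPS at 2 h and 702 and 990 FPKM with LPS at 6 h. Its change of 7.11 ± 0.21 (adjusted p = 1.18e-08) was the largest rise on the log2(FPKM + 1) scale among entries naming 1 gene with a mean of at least 5 FPKM at either time. Its means differed 163-fold, and a ranking by that ratio gives another order. Fcgr1, the high-affinity receptor for IgG, rose from 43.3 and 30.9 FPKM to 801 and 932 FPKM, and Pml, a nuclear body protein, from 8.15 and 5.96 FPKM to 85.6 and 116 FPKM. Others were far above PBS already at 2 h, such as Ifit1, an RNA-binding antiviral protein, at 397 and 304 FPKM at 2 h against 4.35 FPKM with PBS, and 1046 and 1338 FPKM at 6 h.

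The promoters of 3 interferon-stimulated genes and of Cxcl10 are shown because they rose further after 2 h and hold the interferon-stimulated response element (ISRE), searched as GAAANNGAAA on both strands, which 3.44% of all promoters in the table hold. Capitals mark ISRE matches, and in Cxcl10 also NF-kB matches, and the windows are chr4:156200769-156201068 on the minus strand for Isg15, chr12:26456403-26456702 on the minus strand for Rsad2, chr3:142620413-142620712 on the plus strand for Gbp2 and chr5:92348840-92349139 on the minus strand for Cxcl10.
Isg15: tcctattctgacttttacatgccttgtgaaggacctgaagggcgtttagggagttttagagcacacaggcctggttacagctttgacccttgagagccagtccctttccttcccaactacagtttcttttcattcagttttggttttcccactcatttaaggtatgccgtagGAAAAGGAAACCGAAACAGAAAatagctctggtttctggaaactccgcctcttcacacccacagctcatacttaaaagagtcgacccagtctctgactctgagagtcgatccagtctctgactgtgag
Rsad2: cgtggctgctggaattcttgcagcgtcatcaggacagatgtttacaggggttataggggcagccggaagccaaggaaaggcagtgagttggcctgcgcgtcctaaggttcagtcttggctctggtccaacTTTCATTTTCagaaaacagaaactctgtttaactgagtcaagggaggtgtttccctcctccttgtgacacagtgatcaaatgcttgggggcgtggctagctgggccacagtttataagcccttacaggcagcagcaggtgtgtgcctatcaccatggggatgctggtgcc
Gbp2: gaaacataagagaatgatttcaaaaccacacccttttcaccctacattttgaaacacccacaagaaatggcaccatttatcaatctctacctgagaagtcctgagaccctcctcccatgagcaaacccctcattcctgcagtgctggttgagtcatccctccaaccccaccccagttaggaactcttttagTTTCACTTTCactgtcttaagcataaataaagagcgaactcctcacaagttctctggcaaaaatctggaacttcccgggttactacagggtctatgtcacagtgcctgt
Cxcl10: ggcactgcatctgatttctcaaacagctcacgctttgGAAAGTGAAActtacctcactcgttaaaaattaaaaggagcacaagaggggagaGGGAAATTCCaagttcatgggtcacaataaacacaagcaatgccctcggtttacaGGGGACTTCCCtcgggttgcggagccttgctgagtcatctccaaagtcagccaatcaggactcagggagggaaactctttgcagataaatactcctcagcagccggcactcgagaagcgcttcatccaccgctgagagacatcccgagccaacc
Isg15 held 3 overlapping ISRE matches that begin 78, 72 and 66 bases before the start, Rsad2 held 1 that begins at 120 bases and Gbp2 held 1 that begins at 59 bases. The Gbp2 window also held 1 NF-kB match, left in lower case, that begins 7 bases after the start. Cxcl10 held an ISRE match that begins 213 bases before the start and NF-kB matches that begin at 159, 104 and 103 bases. Of the 10 genes with the largest rises 7 had a promoter in the table, and 3 of these, Gbp2, Pydc3 and Tgtp2, held an ISRE match, while Ms4a4c, Ifi44, Tnfsf10 and Isg20 did not. None of the 7 promoters found for the largest falls held one. Too few of each 10 genes had a promoter in the table, so these matches, like the NF-kB ones above, are listed without a comparison. A motif that 3.44% of all promoters hold can be absent from 7 promoters of any kind, so its absence there carries no weight.

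Of 13 tested genes of antigen presentation by MHC class I 12 were higher and none lower, with a median of 1.47, and for the same number the change exceeded that with PBS. Nlrc5, the transactivator of class I genes, rose from 4.96 and 3.5 FPKM to 81.7 and 119 FPKM (4.27 ± 0.22, adjusted p = 2.8e-07). The peptide transporter gene Tap2 rose from 24.9 and 16.4 FPKM to 141 and 186 FPKM, and the immunoproteasome subunit gene Psmb9 from 62.8 and 37.1 FPKM to 205 and 262 FPKM. B2m, the light chain of class I, rose from 3234 and 2513 FPKM to 4872 and 5506 FPKM. Of 15 class II and costimulatory genes 5 were higher and 4 lower, near the shares of all entries (23.4% and 26.0%). Cd40 rose from 300 and 240 FPKM to 765 and 911 FPKM and Cd274, which encodes PD-L1, from 39.2 and 37.9 FPKM to 250 and 296 FPKM, while Ciita, the class II transactivator, stayed under 0.4 FPKM.

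Of 35 tested effector genes of the later macrophage response 27 were higher and 5 lower, with a median of 1.87, and for 27 the change exceeded that with PBS. Saa3, an acute phase apolipoprotein, was at 18.3 FPKM with PBS, 434 and 124 FPKM with LPS at 2 h and 8837 and 7185 FPKM with LPS at 6 h (5.09 ± 0.44, adjusted p = 8.36e-06). Nos2, the inducible nitric oxide synthase, rose from 11.1 and 4.76 FPKM to 213 and 279 FPKM (4.88 ± 0.29, adjusted p = 6.45e-07), and Ass1, which regenerates its substrate arginine, from 18.4 and 12.0 FPKM to 140 and 146 FPKM. Hdc, the enzyme that makes histamine, rose from 2.88 and 1.42 FPKM to 100 and 114 FPKM. The iron-binding lipocalin gene Lcn2 rose from 10.8 and 6.01 FPKM to 159 and 133 FPKM, and the ferroxidase gene Cp from 3.44 and 2.49 FPKM to 108 FPKM in each library. Fpr1, the receptor for bacterial formyl peptides, rose from 1.21 and 0.953 FPKM to 61.9 and 46.5 FPKM.

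Prostaglandin and itaconate enzymes followed. Ptges, a terminal prostaglandin E synthase, rose from 23.8 and 17.1 FPKM to 156 and 174 FPKM, Ptgs2, which encodes COX-2, from 6.8 and 9.36 FPKM to 24.3 and 27.3 FPKM, and Irg1, which makes itaconate, from 564 and 424 FPKM to 1840 and 2044 FPKM. The plasminogen activation genes of the list fell. Plau, which encodes the plasminogen activator urokinase, was at 456 FPKM with PBS, 264 and 317 FPKM with LPS at 2 h and 14.7 and 12.0 FPKM with LPS at 6 h (-4.34 ± 0.22, adjusted p = 2.55e-07). Its receptor gene Plaur fell from 222 and 187 FPKM to 59.3 and 74.0 FPKM.

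**Figure D4:**
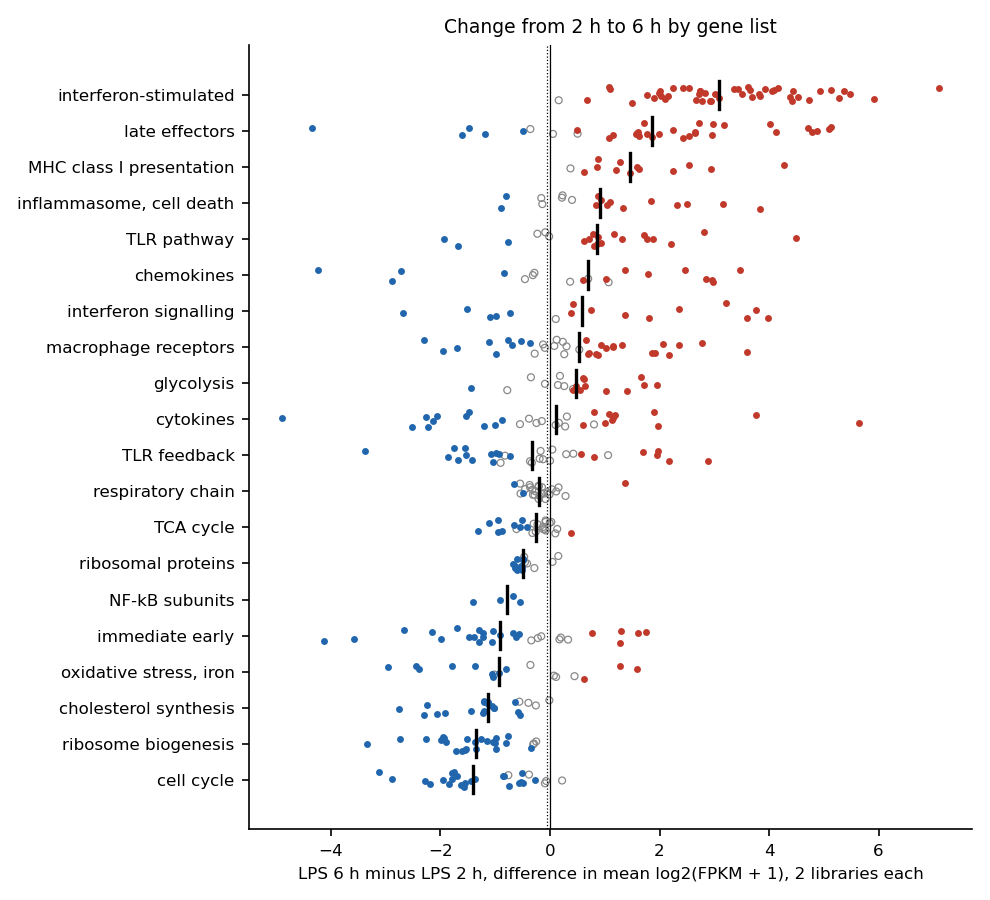
Difference in mean log2(FPKM + 1) between LPS 6 h and LPS 2 h for the tested members of 20 gene lists, with red points for members called higher, blue points for members called lower, open points for members not called, a black bar for each list's median and a dotted line for the median of all tested entries (-0.05). The interferon-stimulated list has its median at 3.09 with 48 of 49 points in red, and the cell cycle list has its median at -1.40 with no point in red.

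Of 21 tested genes of the TLR pathway 15 were higher and 3 lower, with a median of 0.86. Tlr4 itself was recovering, at 14 FPKM with PBS, 3.20 and 5.43 FPKM with LPS at 2 h, 22.5 FPKM with PBS at 6 h and 26.1 and 20.1 FPKM with LPS at 6 h (2.20 ± 0.23, adjusted p = 3.27e-05). Tlr3, the receptor for double-stranded RNA, rose from 3.08 and 3.83 FPKM to 88.7 and 111 FPKM, and Tlr8 from 8.41 and 19.7 FPKM to 104 and 91.7 FPKM. Myd88 rose from 82.5 and 63.3 FPKM to 226 and 275 FPKM. Tlr2, Traf3 and Cd14 were the 3 that fell, with Cd14 at 1986 and 1446, then 946 and 1042 FPKM.

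Of 18 tested inflammasome and cell death genes 11 were higher and 2 lower, with a median of 0.91. Casp1, the protease that matures IL-1 beta and IL-18, rose from 68.1 and 50.1 FPKM to 484 and 578 FPKM, and Mlkl, the executor of necroptosis, from 11.4 and 9.15 FPKM to 147 and 172 FPKM. Aim2, a DNA sensor, rose from 16.0 and 24.1 FPKM to 94.9 and 109 FPKM, and Gsdmd, which forms pores after cleavage by caspases, from 49.8 and 35.3 FPKM to 132 and 177 FPKM. Nlrp3 fell from 100 and 135 FPKM to 61.9 and 62.5 FPKM, above its PBS levels of 16.4 and 17.7 FPKM.

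Of the 67 recovering entries, 45 were within 2-fold of PBS at 6 h or not called, 17 were at least 2-fold above it and 5 were still at least 2-fold below it. Bcl6, a repressor of inflammatory genes, went from 28.0 FPKM with PBS to 5.38 and 6.31 FPKM with LPS at 2 h and 33.0 and 37.4 FPKM at 6 h, against 18.5 FPKM with PBS at 6 h. Trib1, a pseudokinase, stood at 16.2 FPKM with PBS, 4.02 and 4.86 FPKM at 2 h and 21.4 and 18.9 FPKM at 6 h. Txnip, an inhibitor of thioredoxin and of glucose uptake, stood at 60.6 FPKM with PBS, 22.8 and 15.3 FPKM at 2 h and 105 and 106 FPKM at 6 h, close to its PBS level of 98.9 FPKM. The number of recovering entries was 67, and 141 without 2 h replicate 2.

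Cebpa, a factor of myeloid differentiation, was at 76.1 FPKM with PBS and 14.6 and 12.7 FPKM with LPS at 2 h, and at 29.2 FPKM with PBS and 1.6 and 1.16 FPKM with LPS at 6 h (-2.62 ± 0.16, adjusted p = 6.45e-07). The fall between its PBS libraries was called as well (adjusted p = 0.0199), and the LPS change lay below it by -1.27 (adjusted p = 0.00727). Cxcr4, a chemokine receptor that holds cells in the marrow, was at 139 FPKM with PBS and 12.9 and 21.2 FPKM with LPS at 2 h, and at 35.4 FPKM with PBS and 0.754 and 0.759 FPKM with LPS at 6 h. Its PBS libraries also differed by the test (adjusted p = 0.0129), and the LPS change lay below theirs by -1.38 (adjusted p = 0.0167). Cxcr4 was picked after its values were seen. Of 35 tested macrophage receptor genes 17 were higher and 9 lower, the latter near the share of all entries. Cd163, a scavenger receptor for haemoglobin, was at 2.67 and 8.28 FPKM at 2 h and at a listed 0 and 0.399 FPKM at 6 h, and Mrc1, the mannose receptor, fell from 205 and 267 FPKM to 129 and 108 FPKM. Msr1, a scavenger receptor for modified lipoproteins, rose from 177 and 213 FPKM to 836 and 794 FPKM, and Axl, a receptor for apoptotic cells, from 22.2 and 24.4 FPKM to 98.1 and 119 FPKM, whereas Gas6, its ligand, fell from 446 and 365 FPKM to 119 and 127 FPKM.

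Of 26 tested ribosome biogenesis genes 23 were lower and none higher, with a median of -1.36, and for 24 the change lay below that with PBS. Gnl3, the nucleolar GTPase nucleostemin, was at 20.8 FPKM with PBS, 33.0 and 29.6 FPKM with LPS at 2 h and 2.72 and 1.73 FPKM with LPS at 6 h (-3.34 ± 0.15, adjusted p = 1.29e-07). Nolc1, a nucleolar chaperone, fell from 18.0 and 16.2 FPKM to 2.96 and 2.60 FPKM, and Polr1b, a subunit of RNA polymerase I, from 5.43 and 5.25 FPKM to 0.671 and 0.540 FPKM. Among 17 ribosomal protein genes 11 were lower and none higher with a median of -0.50, but the count rests on single libraries. Without 2 h replicate 1, 3 were lower and 2 higher, without 2 h replicate 2, 15 were lower, and without either 6 h library 2 were lower. For none of them did the change with LPS differ from that with PBS.

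Of 28 tested cell cycle genes 23 were lower and none higher, with a median of -1.40, and for 15 the change lay below that with PBS. Rrm2, a subunit of ribonucleotide reductase, was at 22.8 FPKM with PBS, 18.8 and 25.4 FPKM with LPS at 2 h and 1.67 and 1.58 FPKM with LPS at 6 h (-3.12 ± 0.20, adjusted p = 1.02e-06). The replicative helicase genes Mcm2 and Mcm3 fell, Mcm2 from 13.6 and 17.5 FPKM to 2.42 and 2.34 FPKM and Mcm3 from 27.5 and 28.5 FPKM to 5.29 and 5.49 FPKM, and Pcna, the sliding clamp of DNA polymerase, fell by less, from 219 and 198 FPKM to 160 and 182 FPKM. Mki67, a marker of cycling cells, fell from 26.9 and 36.6 FPKM to 8.46 and 6.37 FPKM. Cdk4 fell from 208 and 174 FPKM to 56.8 and 47.2 FPKM, whereas the cyclin gene Ccnd2 rose from 7.05 and 8.98 FPKM to 55.6 and 66.4 FPKM and Ccnd1 recovered from 42.3 and 62.6 FPKM to 127 and 171 FPKM.

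Of 22 tested cholesterol synthesis genes 18 were lower and none higher, with a median of -1.14, and for 15 the change lay below that with PBS, where the same list had a median of 0.55 between the 2 times. Insig1, which retains SREBP in the endoplasmic reticulum and is itself an SREBP target, fell from 82.1 and 95.0 FPKM to 12.3 and 12.0 FPKM (-2.77 ± 0.12, adjusted p = 1.13e-07). Hmgcs1, at the entry of the mevalonate pathway, fell from 37.2 and 44.7 FPKM to 9.48 and 8.52 FPKM, and Sqle, which commits the pathway to sterols, from 29.7 and 34.4 FPKM to 6.26 and 5.74 FPKM. The efflux transporter gene Abcg1 rose from 8.89 and 9.14 FPKM to 43.3 and 55.8 FPKM. Its relative Abca1 was at 20.0 and 48.3 FPKM, then 56.5 and 39.2 FPKM, and was not called; its change was -0.04 without 2 h replicate 1 and 1.197 without 2 h replicate 2.

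Of 19 tested glycolysis genes 11 were higher and 1 lower, with a median of 0.47, although 6 were higher when the 4 LPS libraries were fitted alone. Slc2a1, the glucose carrier GLUT1, rose from 39.5 and 38.2 FPKM to 81.1 and 78.3 FPKM, and Slc16a3, which exports lactate, from 33.6 and 31.4 FPKM to 138 and 119 FPKM. Of 25 genes around the TCA cycle 9 were lower and 1 higher, among them Idh1, a cytosolic isocitrate dehydrogenase, which fell from 49.3 and 47.3 FPKM to 21.8 and 16.4 FPKM. Of 26 respiratory chain genes 2 were lower and 1 higher, with none lower without 2 h replicate 1 and 16 lower without 2 h replicate 2. Among 17 genes of oxidative stress and iron handling 9 were lower and 3 higher. Srxn1, a target of NRF2 that repairs peroxiredoxins, fell from 120 and 113 FPKM to 21.3 and 21.6 FPKM, and Slc40a1, the iron exporter ferroportin, from 14.3 and 20.3 FPKM to 1.56 and 1.14 FPKM, while Hmox1, which degrades haem, rose from 194 and 167 FPKM to 627 and 468 FPKM.

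Among genes often used as references, Actb rose from 2898 and 2398 FPKM to 7539 and 7756 FPKM, whereas Gapdh (1336 and 1095, then 1484 and 1267 FPKM), Sdha (77.0 and 70.0, then 67.4 and 67.2 FPKM) and Tbp (8.15 and 9.28, then 8.91 and 10.5 FPKM) were not called. Of 10 tested reference genes 3 were higher and 4 lower, with a median of 0.01.

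In the coordinates of the deposited table, which match GRCm38, the assembled locus is chr17:57041775-57107757 for Tnfsf9, chr12:8497763-8499985 for Rhob and chr14:20836662-20843388 for Plau. Among the genes that rose it is chr19:11404487-11427246 for Ms4a4c, chr3:151730922-151750135 for Ifi44, chr7:74275419-74554780 for Slco3a1 and chr3:27316949-27354842 for Tnfsf10. As for Rhof, such a locus can hold other genes, and that of Tnfsf9 has 65983 bases. Slco3a1, an organic anion transporter, went from 0.792 and 0.840 FPKM to 104 and 126 FPKM. Lipg, an endothelial-type lipase, went from 1.67 and 1.22 FPKM to 94.2 and 140 FPKM. The 10 largest rises and 10 largest falls also hold Gm23487 and Gm25777, short predicted RNA genes. Gm23487 was listed at 0 in all PBS and 2 h libraries and at 116 and 60.9 FPKM at 6 h, and Gm25777 was at 14.7 and 24.3 FPKM at 2 h and listed at 0 elsewhere in these cells; FPKM of genes shorter than a sequenced fragment is unreliable. The Gm25777 call was lost without 2 h replicate 2 or either 6 h library (adjusted p from 0.0601 to 0.0649).

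Exon number and the span of the assembled locus differed between the time courses as a description, with no test. An assembled locus can hold other genes, so its span is not the size of the gene. Over entries with a matching GENCODE gene model, early transient genes had a median of 6.5 exons and a locus of 22.7 kb (154 of 176 genes), early rising genes 7 exons and 24.5 kb (124 of 144), and late genes 9 exons and 47.7 kb (686 of 779), against 9 exons and 32.2 kb over all tested single-gene entries (9586 of 11145).

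The same interval after Poly I:C was the nearest experiment for comparison, and it shares no library with the one described so far. In cells that had received Poly I:C for 24 h, 1762 entries (14.7%) were higher and 3034 (25.3%) lower at 6 h than at 2 h of LPS. Of the 2803 entries higher in unprimed cells 502 were also higher there, 17.9% of the unprimed and 28.5% of the primed set, and 808 were lower. Of the 3111 entries lower in unprimed cells 1024 were also lower, 32.9% and 33.8% of the 2 sets, and 478 were higher. Tested directly, the change after Poly I:C was above that after PBS for 2282 entries (19.1%) and below it for 3030 (25.3%).

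Of the 188 early transient entries 106 (56.4%) were called lower and 18 higher after Poly I:C. Over all entries 25.3% were lower and 14.7% higher. Of the 866 late entries 126 (14.5%) were called higher, near that share of all entries, and 323 (37.3%) lower. Ifnb1 was at 218 and 210 FPKM at 2 h and 32.0 and 29.0 FPKM at 6 h after Poly I:C, and its change of -2.77 differed from the unprimed one by -0.09 ± 0.51 (adjusted p = 0.897). Cxcl1 was at 405 and 478, then 148 and 136 FPKM, a change of -1.62 that was 2.61 ± 0.47 smaller in size than without Poly I:C (adjusted p = 0.00138).

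For interferon-stimulated genes none of the 49 tested members was higher and 28 were lower at 6 h after Poly I:C, and for 48 the change lay below the unprimed one. Irf7 stood at 3953 and 4020 FPKM at 2 h and 2150 and 2007 FPKM at 6 h in these cells, so that at 2 h it was above the 6 h level of unprimed cells (1187 and 1601 FPKM). Ms4a4c stood at 2860 and 2945, then 1765 and 1712 FPKM.

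Of the 26 tested ribosome biogenesis genes 21 were higher and none lower at 6 h after Poly I:C, and for all 26 the change lay above that in unprimed cells. Gnl3 stood at 8.73 and 9.42 FPKM at 2 h and at 16.4 and 15.6 FPKM at 6 h after Poly I:C, against 33.0 and 29.6, then 2.72 and 1.73 FPKM without it. Cholesterol synthesis genes were lower at 6 h for 7 of 22 members in primed cells, and for 14 the change lay above the unprimed one. Over all entries 25.3% were lower in primed cells, near the share of this list, and for 19.1% the change lay above the unprimed one.

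**Figure D5:**
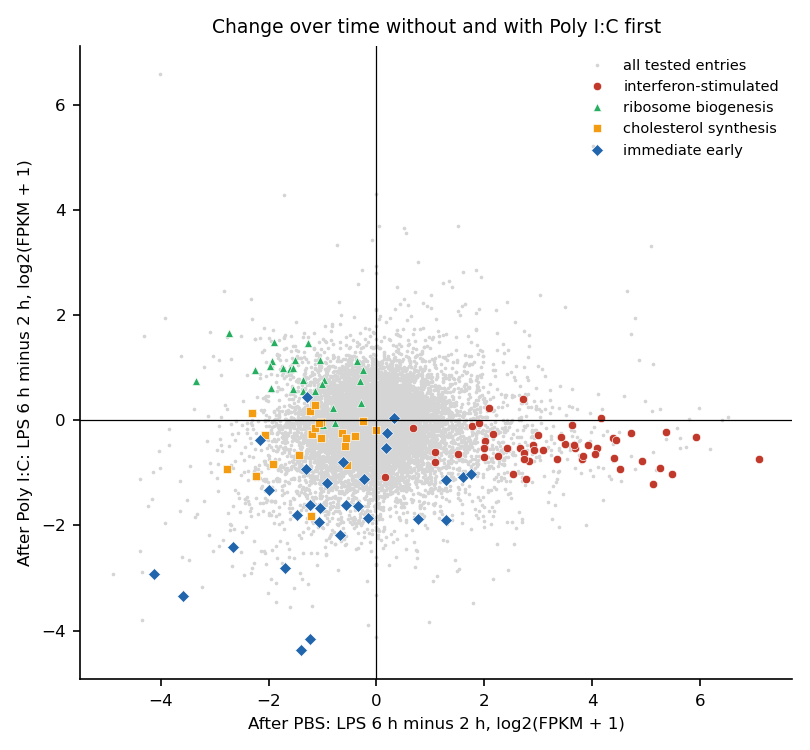
Difference in mean log2(FPKM + 1) between LPS 6 h and LPS 2 h after PBS (x axis) and after Poly I:C (y axis), with 2 libraries per group and time, for all tested entries in grey and the members of 4 lists in colour. The interferon-stimulated genes lie far to the right and mostly below 0 on the y axis, and the ribosome biogenesis genes lie to the left and mostly above 0.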

How the data were processed

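The authors aligned paired 76-base reads of polyadenylated RNA with TopHat2 and made FPKM values with Cufflinks and Cuffnorm, per the submitters' processing notes, and deposited them as 1 table of 39721 entries. The notes name mm9, but 33738 of 33795 entries matched by name overlap the GRCm38 gene. Entries without a name (1859) were left out, and entries naming several genes (1066) stood for no list member. A symbol with several entries was read from the entry with the highest mean. Entries with FPKM of 1 or more in 2 or more libraries were tested with limma 3.58.1 (R 4.3.3) on log2(FPKM + 1), with 1 mean for each of 8 groups over 14 libraries, 6 residual degrees of freedom, an intensity trend and Benjamini-Hochberg adjustment. The fit was tested on simulated data. The number of reads per library is unknown. Named genes were the 10 largest called changes each way (single-gene entries, mean of at least 5 FPKM at either time, no overlap), up to 4 called members of each list each way, and a fixed panel. Lif, Csf1, Nr4a3, Egr2, Zc3h12a, Dusp1, Irak3, Rnd1, Errfi1, Ccl2, Ccl7, Ccl12, Tyk2, Stat3, Ifngr2, Irf3, Tgtp1, Mx2, Fcgr1, Pml, B2m, Ass1, Fpr1, Ptges, Myd88, Gsdmd, Cxcr4, Msr1, Pcna, Gapdh, Sdha and Tbp fall outside that rule and were chosen after their values were seen. The members and lists were chosen with earlier results of these data known. Alternatives covered the pseudocount, filter, scaling, trend, libraries fitted, replicate block and each library left out. Some items are not reported here.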

Additional observations from a re-analysis of the deposited data

Results flagged for a closer look

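Of 49 panel genes tested, 34 changed differently from 2 h to 6 h of LPS after Poly I:C than after PBS, by the interaction test of the limma fit. Values are the change after Poly I:C minus that after PBS on the log2(FPKM + 1) scale, and 28 of the 34 were negative. Over all 11977 tested entries the same test called 25.3% negative and 19.1% positive. Among interferon-related genes the difference was -4.91 for Irf7, -4.86 for Cxcl9, -4.55 for Rsad2, -4.09 for Mx1, -3.61 for Isg15, -2.31 for Gbp5, -1.88 for Ifit1 and -1.69 for Cxcl10. For cytokine and chemokine genes it was -3.55 for Ccl5, -2.42 for Il10, -2.06 for Il23a, 1.57 for Il12b and 2.61 for Cxcl1. Immediate early and feedback genes gave -3.78 for Zfp36, -3.17 for Fos, -2.93 for Egr1, -2.65 for Atf3 and -1.29 for Myc. Effector genes gave -3.72 for Nos2, -3.01 for Irg1, -2.43 for Arg1, -1.95 for Ptgs2, -1.77 for Saa3 and 1.21 for Lcn2. Surface molecules gave -3.10 for Marco, -2.82 for Cd86, -2.44 for Tlr4, -0.95 for Cd40 and 0.83 for Mrc1. Genes of metabolism and the cell cycle gave -4.35 for Ccnd1, -1.36 for Abca1, -0.91 for Slc2a1, 1.32 for Hk2 and 1.79 for Hmgcs1. The difference for Arg1 rests on the unprimed libraries, since Arg1 was listed at 0 in all 4 primed libraries and at 0, 0.131, 4.87 and 4.62 FPKM in the unprimed LPS libraries. That for Il23a rests mainly on the primed libraries, at 65.7 and 86.5, then 14.3 and 11.9 FPKM. In the unprimed LPS libraries Il23a was at 0.188 and 0.432 FPKM, then at a listed 0 in each, and its change was not called.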

How the results depend on the processing

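Of 228 named genes 215 were called. Of these, 184 stayed called in the same direction in all 13 alternative settings, and none was called in the opposite direction in any. Fits on the 4 PBS-then-LPS libraries or the 6 unprimed libraries alone each lost 26 calls, testing without the filter lost 13, and leaving out 1 LPS library lost from 5 to 17. The number of entries lower at 6 h was 3111, and 1966 or 1943 in those smaller fits. The change with LPS exceeded that with PBS for 569 entries and lay below it for 271 when the 6 unprimed libraries were fitted alone, against 1660 and 1402. With a 1.5-fold threshold the early transient entries numbered 368, the early rising 318, the recovering 216 and the late falling 1396. The recovering entries numbered 134 with a pseudocount of 0.1, and from 65 to 141 when 1 LPS library was left out, which was chosen after seeing the data. Il1b, Il6 and Abca1, none of them called, changed sign without 1 of the 2 h libraries, with ranges of -0.133 to 0.338, -0.09 to 0.644 and -0.036 to 1.197. The cause of these shifts was not tested. Deviations of same-numbered libraries correlated from -0.19 to 0.078 over 15 pairs of groups, so the numbers were not taken to pair the libraries. With a replicate block 2691 entries were higher and 2938 lower, 1515 and 1227 relative to PBS, and 2151 and 2889 relative to Poly I:C; with the 6 h numbers crossed, chosen after seeing the data, 2762 were higher and 3050 lower.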
